A study of Saccharomyces cerevisiae with 12 samples.

Results

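Gene expression in wild-type budding yeast (Saccharomyces cerevisiae, strain DBY8778) was compared between a late and an early stretch of a time course labelled stationary phase. The late side held the arrays at 7 hours, 9 hours and 1 day, and the early side the arrays at 0, 3 and 5 hours. These were 6 of the 12 arrays of the series, chosen by strain and labelled time. The other 6 arrays, of a strain lacking USV1, did not enter the comparison. Each array set the total RNA of 1 sample against a reference RNA. The labels give no medium, growth temperature or mating type for DBY8778, no source for the reference, and no event from which the hours were counted. Each time point had 1 array and nothing in the labels says that more than 1 culture was grown, so the 3 arrays of a side are steps of a course and not repeats. A p-value here sets the difference between the sides against the drift within each side. In RNA from a whole culture, fewer cells of a kind and less RNA per cell cannot be told apart.

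As background, yeast that runs out of glucose switches from fermentation to respiration of the ethanol and acetate it has made, in what is called the diauxic shift. Glucose repression is lifted from the genes of respiration, of the glyoxylate cycle and of gluconeogenesis, and lower signalling through protein kinase A and TOR turns down the making of ribosomes. Cells that later stop dividing store glycogen and trehalose and make stress proteins, and are then said to be in stationary phase.

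A value is the log2 of a gene's ratio to the reference RNA after each array's median was set to 0, so it stands relative to the middle gene of that array. Positive values were taken to mean more RNA in the sample than in the reference. That direction is likely rather than known, because it was taken from USV1, which was lower in the deletion at 5 of the 5 time points the strains share. The table held 6100 open reading frames, and 5931 to 6085 had a value on each wild-type array. The spread over genes, as a standard deviation (SD), was 1.46 at 7 hours, 1.41 at 9 hours and 1.21 at 1 day, against 0.62 at 0 hours, 0.49 at 3 hours and 0.68 at 5 hours. Across genes, which are not independent, the late arrays correlated with each other at r = 0.86 to 0.93, the early arrays at 0.55 to 0.68, and late with early arrays at 0.15 to 0.53. Genes of close sequence may share signal between their spots, which makes single values uncertain in ribosomal protein pairs and in the TDH, HXT, ENO, ADH and IMD families.

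Of 6081 genes tested, 2300 (37.8%) differed between the late and the early side at an adjusted p under 0.05 (limma). Of these, 1097 (18.0% of the genes tested) were higher late and 1203 (19.8%) were lower late. A rise or a fall below means such a call. Counts of calls within gene lists are to be read beside these shares of all genes tested. At least 2-fold differences made up 826 of the rises and 952 of the falls. The top of the range was uneven: 35 genes rose at least 16-fold, and 2 genes fell that far. Without a model of the spread, all 3 late values lay above all 3 early values in 1461 (26.3%) of the 5550 genes with 6 values, and below them in 1449 (26.1%). When the test asked for more than a 2-fold difference, 503 genes (8.27%) passed, 243 higher and 260 lower. Among the 3781 genes not called, 1838 had a 95% interval that lay within 2-fold of no difference.

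The largest rise was that of HSP30, a stress protein that sits in the plasma membrane. In what follows, the 3 values of a side stand in order of time. HSP30 had log2 ratios of 8.41, 8.31 and 7.61 on the late arrays, against -0.04, 1.23 and 1.66 on the early arrays, a difference of 7.16 (SE 0.42, adjusted p = 4.45e-06). The sides lay far apart, and the 5-hour array was the highest of the early arrays. SPG1, named for survival in stationary phase, had ratios of 6.51, 7.99 and 5.04 late, against 0.57, -0.12 and 0.72 early (difference 6.12, SE 0.59, adjusted p = 4.41e-05). GRE1, a hydrophilin, which is a small water-loving protein made on drying and osmotic stress, had 4.96, 6.27 and 6.45 late, against -0.57, 0.52 and -0.17 early (difference 5.97, SE 0.41, adjusted p = 1.31e-05). GRE1 was highest at 1 day, whereas SPG1 was highest at 9 hours and HSP30 at 7 hours.

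The other genes among the 12 largest rises rose by between 4.81 and 5.78 on the log2 scale. They were ISF1 (5.78), the cell wall protein SPI1 (5.41), the gluconeogenic fructose bisphosphatase FBP1 (5.21), the carnitine acetyltransferase CAT2 (5.19), the hexose transporter HXT5 (5.13), YNL195C (5.03), the ribosome-associated protein TMA10 (5.0), the mitochondrial pyruvate carrier subunit MPC3 (4.99) and the gluconeogenic carboxykinase PCK1 (4.81). All 12 have late values above all early values, as the rule that chose them requires. SPI1 stood at 8.0 at 7 hours, against 3.12 at 5 hours, its highest early value. SPG4, a relative in name of SPG1, had no value at 5 hours and stood at 5.72, 5.71 and 5.36 late, against -0.74 and -0.44 early (difference 6.19, SE 0.29, adjusted p = 4.45e-06).

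**Figure D1:**
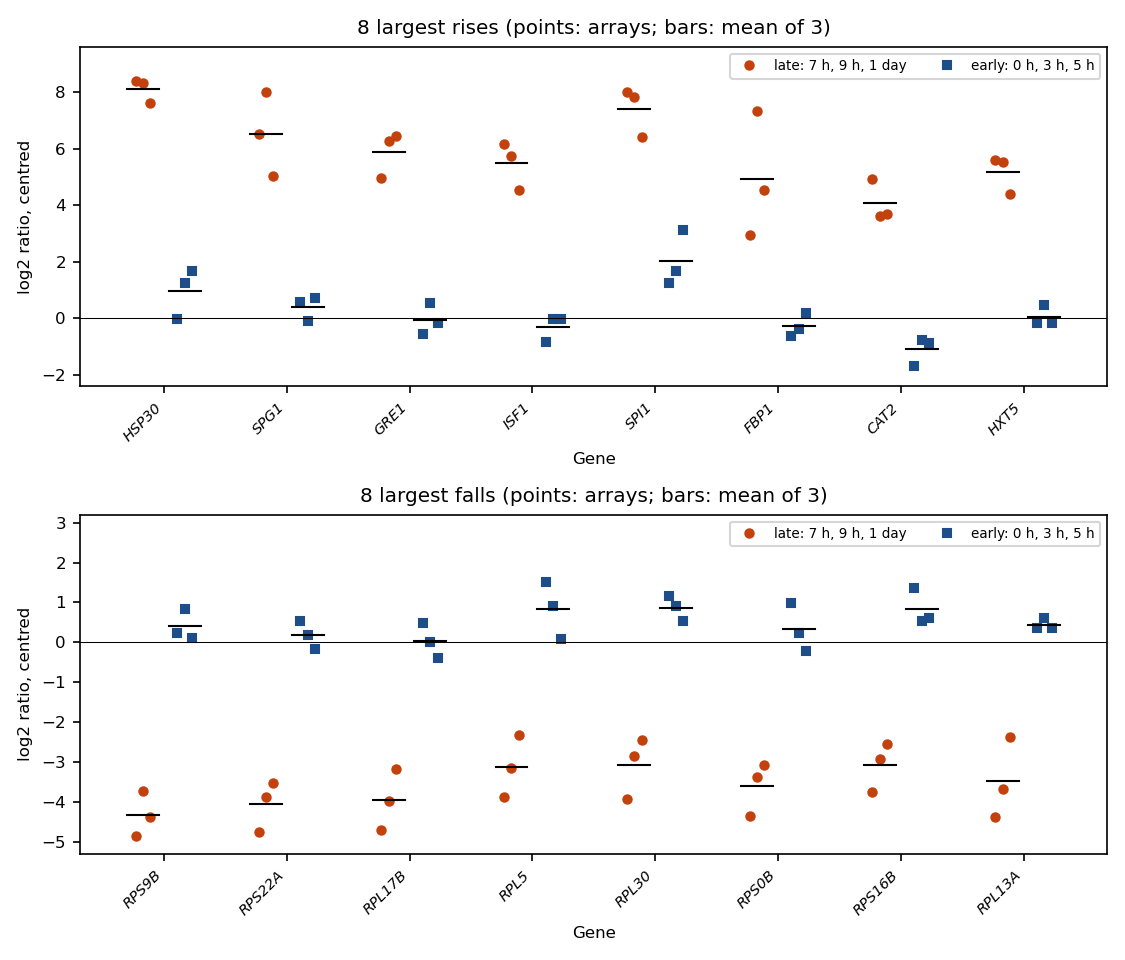
Centred log2 ratio to the reference (vertical axis) of the 8 genes with the largest rise (top) and the 8 with the largest fall (bottom) among genes called, with 6 values and no overlap between the sides. Circles are the late arrays (7 hours, 9 hours, 1 day from left to right), squares the early arrays (0, 3, 5 hours), and bars the mean of 3. The late circles of HSP30 lie between 7.61 and 8.41, and those of RPS9B between -4.85 and -3.73.

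The gene lists below were chosen with earlier results of these data known, so counts within them describe the lists and are not a test. A list of 51 genes known from stationary phase, drying and general stress rose in the main. Of these, 41 were higher late, 1 was lower and 9 were not called. The median difference was 3.12, against 0.05 over all genes tested. Under quantile normalization, which gives all arrays the same spread over genes, 24 were higher and 2 lower, with a median difference of 1.45. In the fit without the 1-day array, 2 were lower. The list's median was 3.56, 3.94 and 3.75 on the late arrays, against 0.37, 0.50 and 0.80 on the early arrays. Besides HSP30, SPG4, SPG1 and GRE1, the risers included HSP12, a membrane-protecting stress protein, at 6.95, 7.74 and 5.88 late, against -0.61 at 0 hours and 3.66 at 5 hours. HSP12 had no value at 3 hours, and its 5-hour value lay between its 0-hour value and its late values. The only member that fell was NOP6 (-1.40), a hydrophilin by sequence that works in making the small ribosomal subunit.

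USV1, the zinc finger gene whose deletion the series studies, rose with these genes. It stood at 4.40, 3.94 and 2.59 late, against -0.57, 0.50 and 0.28 early, a difference of 3.57 (SE 0.45, adjusted p = 0.000182). All late values were above all early values, with the lowest late value at 1 day.

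Of 36 heat shock proteins and chaperones, 13 were higher late and 7 lower. The share of falls, 19.4%, was near the 19.8% over all genes tested. The median difference was 0.32, which turned to -0.12 under quantile normalization with 4 higher and 4 lower. The largest rise was that of the stress-induced Hsp70 gene SSA3, at 4.55, 4.44 and 5.25 late, against 0.25, 0.50 and 1.13 early (difference 4.12, SE 0.32, adjusted p = 2.01e-05). The small heat shock proteins HSP26 (3.80) and HSP42 (3.26), the aggregate-sorting protein BTN2 (3.37) and the disaggregase HSP104 (2.22) rose as well. The chaperones that sit on the ribosome and bind new chains went the other way: SSB2 fell by 3.40, SSB1 by 1.20, and their partners ZUO1 by 2.42 and SSZ1 by 2.0. SSB2 stood at -4.57, -3.68 and -2.61 late, against 0.01, -0.52 and -0.15 early (SE 0.43, adjusted p = 0.000177).

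Of 31 genes of oxidative stress defence, 14 (45.2%) were higher late and 4 (12.9%) lower, beside 18.0% and 19.8% over all genes tested. Under quantile normalization 5 were higher and 6 lower. The glutathione peroxidase gene GPX1 rose by 4.34, the peroxiredoxin TSA2 by 3.33, the cytosolic catalase CTT1 by 3.26 and the mitochondrial peroxiredoxin PRX1 by 2.58. GPX1 had 3.96, 5.48 and 4.52 late, against 0.21, -0.02 and 0.74 early (SE 0.38, adjusted p = 3.13e-05). The falls were those of TRR1, GPX2, GRX3 and GSH2, and 2 of these 4 calls were lost without the 0-hour array and 2 without the 9-hour array.

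Genes of respiration rose almost as a whole. Of 43 genes for the respiratory chain and for ATP synthase, 42 were higher late and none was lower, with a median difference of 2.28. Under quantile normalization 14 were higher, with a median difference of 1.01. Their median was 2.47, 3.31 and 2.74 late, against 0.08, 0.62 and 1.10 early, so it climbed along the early side too. The one not called was COX5B, the subunit 5 isoform of cytochrome oxidase made when oxygen is low, at 2.46, 1.79 and 1.06 late, against 0.15, 1.47 and 1.10 early (difference 0.86, SE 0.41, adjusted p = 0.121, and -0.64 under quantile normalization). The isoform made in air, COX5A, rose by 2.66.

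The largest rise in the respiratory list was that of CYB2, the lactate dehydrogenase that feeds cytochrome c. CYB2 had 4.21, 5.37 and 1.88 late, against -0.52, -0.43 and -0.24 early (difference 4.22, SE 0.67, adjusted p = 0.000725). Its late values were more uneven than those of the succinate dehydrogenase subunit SDH2, at 3.92, 4.71 and 4.37 late, against 0.58, 1.04 and 1.13 early (difference 3.42, SE 0.29, adjusted p = 3.05e-05). The anchor subunit SDH4 and the oxidase subunit COX12 each rose by 3.24. Of 69 mitochondrial ribosomal protein genes, by contrast, 9 were higher late, 3 were lower and 57 were not called. Both shares lay below those over all genes tested, 18.0% higher and 19.8% lower. Under quantile normalization 0 of the 69 were higher and 4 lower. The median difference of the 69 genes was 0.25, and -0.065 under quantile normalization.

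The counts of mitochondrial ribosomal genes depended on single arrays. Against 9 higher genes in the full fit, there was 1 without the 0-hour array, 3 without the 3-hour array, 3 without the 7-hour array and 2 without the 9-hour array. Against 3 lower genes, there was 1 without the 3-hour, the 5-hour or the 1-day array. MRP8 rose by 1.81 and RSM28 by 1.26, the call of RSM28 being lost without the 0-hour array. RSM10 (1.20, and -0.088 under quantile normalization) and MRPL28 (1.09) had sides that overlapped, and both calls were lost without the 0-, 3-, 7- or 9-hour array.

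The tricarboxylic acid cycle rose in 9 of 14 genes (3 under quantile normalization), with a median difference of 1.35, and 0.15 under quantile normalization. Of the other genes, 4 were not called and 1 fell, a call lost without the 9-hour array. The propionate-using citrate synthase CIT3 rose by 3.97, the main citrate synthase CIT1 by 2.80, the malate dehydrogenase MDH1 by 2.73 and the ketoglutarate dehydrogenase subunit KGD1 by 2.40. MDH1 was steady within each side, with 3.15, 3.61 and 3.55 late, against 0.64, 0.60 and 0.88 early (SE 0.25, adjusted p = 4.07e-05).

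The glyoxylate cycle and gluconeogenesis, the routes that build sugar from acetate, had the highest median difference of the 30 lists, at 3.31. Of 19 members, 17 were higher late and 1 was lower. The lactate permease JEN1 rose by 5.63, with 5.42, 6.11 and 4.96 late, against -0.04 and -0.23 at 0 and 3 hours and no value at 5 hours (SE 0.36, adjusted p = 1.45e-05). PCK1 had 4.88, 6.0 and 3.51 late, against 0.06, -0.08 and -0.01 early (SE 0.49, adjusted p = 5.82e-05). The early values of PCK1 lay close to 0, whereas its late values spanned more than 2 log2 units.

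FBP1 was less steady, with 2.93, 7.34 and 4.54 late, against -0.64, -0.38 and 0.19 early (SE 0.83, adjusted p = 0.000744). The malate synthase MLS1 had the same order, with 2.41, 5.70 and 4.26 late, against -0.84, -0.10 and -0.16 early, a difference of 4.49. The isocitrate lyase ICL1 and the acetyl-CoA synthetase ACS1 instead had their highest value at 1 day, at 4.33 and 4.69. The acetate transporter ADY2 rose by 4.51. The member that fell was MAE1, the malic enzyme that runs from malate to pyruvate, by 2.14.

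Of 30 genes of fatty acid oxidation and peroxisomes, 19 were higher late and 1 was lower, with a median difference of 1.28. Carnitine genes, which carry acetyl groups between compartments, led the list: CAT2 rose by 5.19, the mitochondrial carrier CRC1 by 3.89 and the outer acetyltransferase YAT1 by 3.76. CRC1 had 1.76, 2.56 and 2.60 late, against -2.31, -1.26 and -1.19 early (SE 0.36, adjusted p = 3.92e-05). The thiolase POT1 rose by 3.65, and the acyl-CoA synthetase FAA4 fell by 2.25. Without the 1-day array, 2 of the 30 were lower.

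Genes for ethanol, acetate and glycerol were mixed, with 9 of 18 higher late and 5 lower. ACH1, which moves acetyl-CoA units in mitochondria, rose by 3.81 and the stress-induced aldehyde dehydrogenase ALD2 by 3.66. The glycerol phosphatase GPP1 fell by 3.75, at -4.61, -4.77 and -2.90 late, against 0.19, -0.28 and -0.93 early (SE 0.47, adjusted p = 0.000183). The glycerol importer STL1 stood at 0.42 at 7 hours but 4.42 at 9 hours and 4.41 at 1 day, against -0.83, 0.03 and 0.16 early. Its difference of 3.30 (SE 0.86, adjusted p = 0.0118) was no longer called without the 9-hour array. Without the 7-hour array, 3 of the 18 were lower.

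**Figure D2:**
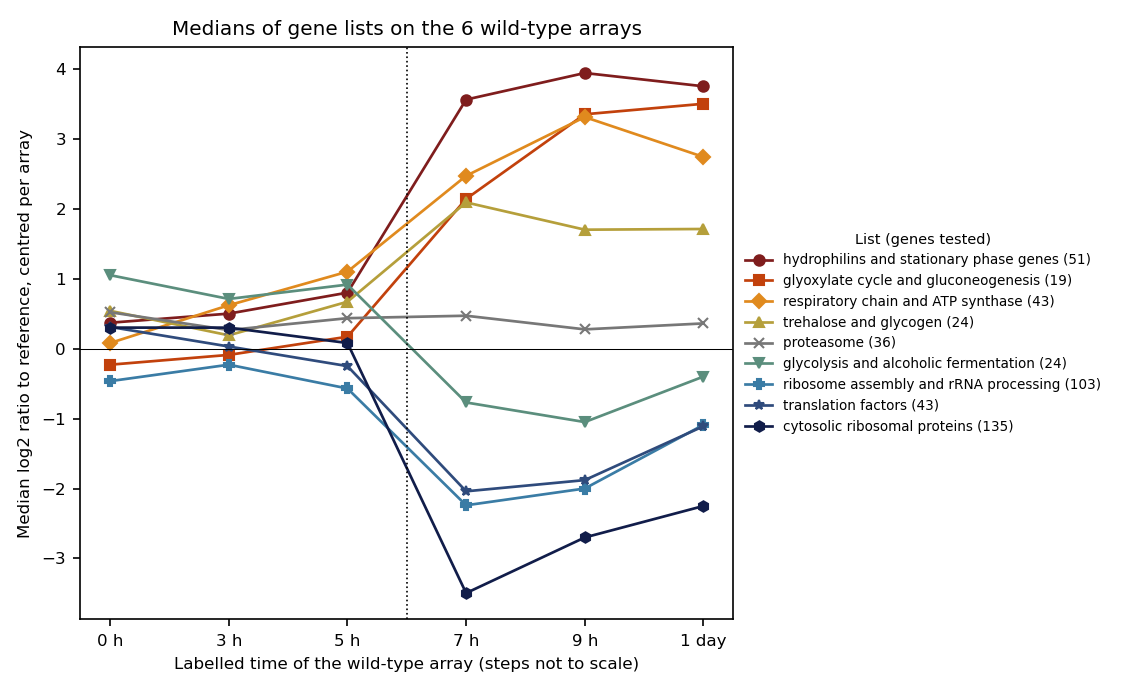
Median centred log2 ratio (vertical axis) of 9 gene lists on the wild-type arrays in order of labelled time (horizontal axis, steps not to scale). Symbols mark single arrays, the legend gives the genes tested, and the dotted line separates the early side from the late side. The median of cytosolic ribosomal proteins is -3.50 at 7 hours, -2.70 at 9 hours and -2.25 at 1 day, against 0.30, 0.30 and 0.08 at 0, 3 and 5 hours, while that of the proteasome stays between 0.27 and 0.52.

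RNA of most genes of glycolysis and alcoholic fermentation was lower late. Of 24 such genes, 17 were lower late and 2 higher, with a median difference of -1.62. The main pyruvate decarboxylase PDC1, which commits pyruvate to ethanol, fell by 3.23, with -3.26, -3.38 and -2.83 late, against 0.95, 0.18 and -0.90 early (SE 0.41, adjusted p = 0.000192). PDC5 fell by 2.76, the aldolase FBA1 by 2.47 and the pyruvate kinase CDC19 by 2.46. PDC1 was already lower at 5 than at 0 hours, whereas FBA1 was near level on the early side, at 1.08, 0.98 and 0.80. The rises were those of the glucokinase GLK1 (1.62) and of GPM2 (1.12), whose sides overlapped and whose call was lost without the 0-, 3-, 7- or 9-hour array.

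Of 20 hexose transporters and glucose sensors, 8 (40%) were higher late and 3 (15%) lower, beside 18.0% and 19.8% over all genes tested. HXT5 had 5.61, 5.51 and 4.41 late, against -0.19, 0.48 and -0.16 early (SE 0.35, adjusted p = 1.31e-05). The high-affinity transporter HXT6 differed by 2.86, but stood at 4.24 at 1 day, against 4.10 at 5 hours, and its call was lost without the 0- or the 7-hour array and turned to -0.32 under quantile normalization. HXT2 fell by 2.63, STD1, a regulator of glucose sensing, by 2.49 and the low-affinity transporter HXT1 by 2.12. The count of 8 higher genes was 5 without the 0-hour and 4 without the 7-hour array.

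Of 24 genes of trehalose and glycogen, the storage sugars, 15 (62.5%) were higher late and 1 (4.17%) was lower. Over all genes tested the shares were 18.0% and 19.8%. Under quantile normalization 4 of the 24 were higher and 3 lower. The median difference was 1.22, and 0.35 under quantile normalization. Genes for making and for breaking down glycogen rose together: the debranching enzyme GDB1 by 2.56, the phosphatase subunit GAC1 that activates glycogen synthase by 2.28, and glycogenin, GLG1, by 2.18. The acid trehalase ATH1 rose by 2.20, with 1.62, 1.79 and 1.88 late, against -0.79, -0.39 and -0.13 early (SE 0.26, adjusted p = 0.000138). The fall was that of PGM1 (-1.69).

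Genes of the cytosolic ribosome fell without exception in the fit. All 135 ribosomal protein genes were lower late, with differences from -4.72 to -0.94 and a median of -3.06. In the 132 of them with 6 values, every late value lay below every early value. Among all genes with 6 values, 26.1% had this order. Fits without 1 array called 132 to 134 of them lower. The calls lost were those of RPS30A (-1.28) and RPL41B (-0.94), each without the 3-, the 5- or the 7-hour array.

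RPS9B, of the small subunit, had the largest fall of all genes called, with -4.85, -3.73 and -4.39 late, against 0.24, 0.83 and 0.12 early (difference -4.72, SE 0.33, adjusted p = 1.34e-05). RPS22A followed at -4.75, -3.88 and -3.52 late, against 0.53, 0.19 and -0.17 early (difference -4.23, SE 0.34, adjusted p = 2.42e-05). RPL17B fell by 3.99 and RPL5, which binds the smallest ribosomal RNA, by 3.95. Of the 12 largest falls, 11 were ribosomal protein genes, among them also RPL30, RPS0B, RPS16B, RPL13A, RPP0 and RPL24A at -3.93 to -3.87. The other was YLR062C (-3.89), which stands next in systematic number to the ribosomal protein gene RPL22A and has no entry in the RefSeq table. Whether the 2 overlap was not checked, and binding of RPL22A transcripts to the YLR062C probe was not tested.

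Genes for factors that drive translation fell too. Of 43, 39 were lower late and 1 was higher, with a median difference of -1.77. The elongation factor YEF3 had -5.03, -5.07 and -2.51 late, against -0.27, -0.44 and -1.06 early (difference -3.61, SE 0.58, adjusted p = 0.000807). The factor that rose was HEF3, the second gene for the same elongation factor, with 3.18, 2.71 and 1.25 late, against -0.28, -0.32 and -0.91 early (difference 2.88, SE 0.44, adjusted p = 0.00059). These 2 genes thus moved in opposite directions, and both moved part of the way back at 1 day. ASC1, a scaffold protein of the small subunit, fell by 3.34 and stayed low, at -3.20, -3.0 and -3.55 late, against 0.09, 0.28 and -0.09 early.

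Of 103 genes for assembling ribosomes and processing ribosomal RNA, 78 were lower late (19 under quantile normalization) and 1 was higher, with a median difference of -1.23, and -0.59 under quantile normalization. The core proteins of the small nucleolar particles led the falls. NOP58 fell by 3.07, the methyltransferase NOP1 by 3.03, the pseudouridine synthase CBF5 by 2.90 and NOP56 by 2.78. NOP56 drifted most within the late side, with -4.96, -3.14 and -1.01, against 0.17, -0.48 and -0.46 early. The count of 78 lower genes was 50 without the 3-hour array and 51 without the 9-hour array. The count of higher genes was 0 without the 0-, 3-, 7- or 9-hour array and 2 without the 1-day array.

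RNA polymerases I and III, which transcribe ribosomal and transfer RNA, had 13 of 34 genes (38.2%) lower late and none higher. Over all genes tested 19.8% were lower and 18.0% higher. Under quantile normalization 4 of the 34 were lower and 1 higher. The falls were led by subunits of polymerase I: RPA49 (-3.01), RPA43 (-2.34), RPA34 (-2.13) and RPA135 (-1.89). RPA49 had -4.63, -4.19 and -2.33 late, against -0.60, -0.44 and -1.07 early (SE 0.50, adjusted p = 0.000962). Without the 3-hour array, the count was 8 lower genes.

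Biosynthesis of amino acids fell in 40 of 75 genes and rose in 6, with a median difference of -0.99. The branched-chain enzyme ILV5 fell by 3.23, the cysteine enzyme CYS3 by 3.16 and the mitochondrial transaminase BAT1 by 3.15. CYS3 had -2.09, -4.21 and -3.20 late, against 0.31, 0.35 and -0.68 early (SE 0.48, adjusted p = 0.000598). The 6 that rose were GDH3 (3.34), a glutamate dehydrogenase known from growth on ethanol, the arginine genes ARG3, CPA1 and ARG1, the serine gene SER3, and TRP1, with differences of 1.28 to 2.04 for the other 5.

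Of 36 genes of nitrogen limitation, 13 were higher late (8 under quantile normalization), or 36.1% against 18.0% over all genes tested. None of the 36 was lower, against 19.8% over all genes tested. The count of lower genes was 2 on the deposited values, 1 under quantile normalization and 1 without the 3-hour, the 5-hour, the 7-hour or the 1-day array. ATO2, a membrane protein tied to ammonia export, rose by 4.32, the proline permease PUT4 by 3.97 and the proline oxidase PUT1 by 3.92. ATO2 had 3.53, 4.12 and 2.51 late, against -1.04, -0.88 and -0.87 early (SE 0.37, adjusted p = 3.05e-05). PUT4 had no value at 5 hours, and DAL2 (2.33), for allantoin use, none at 7 hours.

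Purine and pyrimidine synthesis had 18 of 34 genes lower late (10 under quantile normalization) and 1 higher. The guanine branch led, with the IMP dehydrogenase genes IMD3 (-3.15), IMD4 (-3.13) and IMD2 (-2.68) and the GMP synthase GUA1 (-2.57). IMD3 had -3.47, -3.15 and -2.16 late, against 0.55, 0.16 and -0.05 early (SE 0.35, adjusted p = 8.66e-05). The rise was that of URA10 (2.06), a minor isoenzyme of pyrimidine synthesis. Under quantile normalization, and without the 1-day array, 2 were higher.

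Of 37 genes for ergosterol and fatty acids, 22 were lower late and 1 was higher, with a median difference of -0.98. ELO3, which lengthens fatty acids for sphingolipids, fell by 3.26. The late-step sterol genes ERG6 (-3.0), ERG4 (-2.67) and ERG2 (-2.63) fell as well. ELO3 had -3.37, -2.64 and -2.07 late, against 0.21, 0.55 and 0.93 early (SE 0.35, adjusted p = 7.31e-05). ARE2 was the member that rose (0.92), a call lost without any 1 of the early arrays or the 7-hour array.

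Cell wall genes fell more often than they rose. Of 60, 24 (40%) were lower late and 9 (15%) higher, beside 19.8% and 18.0% over all genes tested. The median difference was -0.81, and under quantile normalization 4 were higher. SPI1 rose by 5.41 and FMP45, a membrane protein of the cell cortex, by 3.80. The glucan remodelling enzyme GAS1 fell by 3.37, with -4.55, -3.15 and -2.63 late, against -0.05, -0.18 and 0.00 early (SE 0.42, adjusted p = 0.000172). INA1 fell by 3.57, and was low on all late arrays, at -4.28, -4.15 and -4.04, against -0.48, -0.19 and -1.10 early.

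Of 51 genes of the cell cycle and DNA replication, 25 were lower late (11 under quantile normalization) and 1 was higher, with a median difference of -0.79, and -0.49 under quantile normalization. The mitotic cyclin CLB2 fell by 2.17, with -2.83, -2.39 and -2.92 late, against -0.54, -0.79 and -0.31 early (SE 0.27, adjusted p = 0.00016). The G1 cyclin CLN2 fell by 2.07 and the thymidylate synthase CDC21 by 1.81. CLB1 fell by 1.75, but its 7-hour value of -0.17 lay next to its 0-hour value of -0.16, and its call was lost without the 3-hour array. The gene that rose was XBP1 (1.5), a repressor of cyclin genes under stress. The count of lower genes was 14 without the 0-hour array and 15 without the 3-hour array, and 2 were higher without the 5-hour array.

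Of 10 histone genes, 6 (60%) were lower late and none was higher, beside 19.8% and 18.0% over all genes tested. The falls were led by HTB2 (-2.09), HTA2 (-1.80), HHF1 (-1.46) and HTB1 (-1.35). HTB2 had -1.64, -0.97 and -0.81 late, against 1.23, 0.83 and 0.78 early (SE 0.29, adjusted p = 0.000356). Mating and pheromone genes had 5 of 25 lower and 1 higher, a share of falls near that over all genes. Of these, SST2, which ends the pheromone signal, fell by 1.72. The calls of BAR1 (-1.39), STE12 (-1.09) and RME1 (1.11, and -0.057 under quantile normalization) were each lost without the 3-hour or the 9-hour array, and without other single arrays too. The count of 5 lower genes was 2 without the 3- or the 5-hour array and 1 without the 9-hour array.

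Sporulation genes had 7 of 29 higher late, or 24.1% against 18.0% over all genes tested, and none lower (1 without the 9-hour array). SPS100, known from maturation of the spore wall, stood at 3.79, 3.88 and 6.95 late, against -0.17, 0.18 and 0.92 early (difference 4.56, SE 0.70, adjusted p = 0.000602). It was thus highest at 1 day by a wide margin. SPS19, a peroxisomal reductase of fatty acid oxidation, rose by 2.42, the meiotic cohesin REC8 by 1.79 and the glycogen-degrading SGA1 by 1.46.

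**Figure D3:**
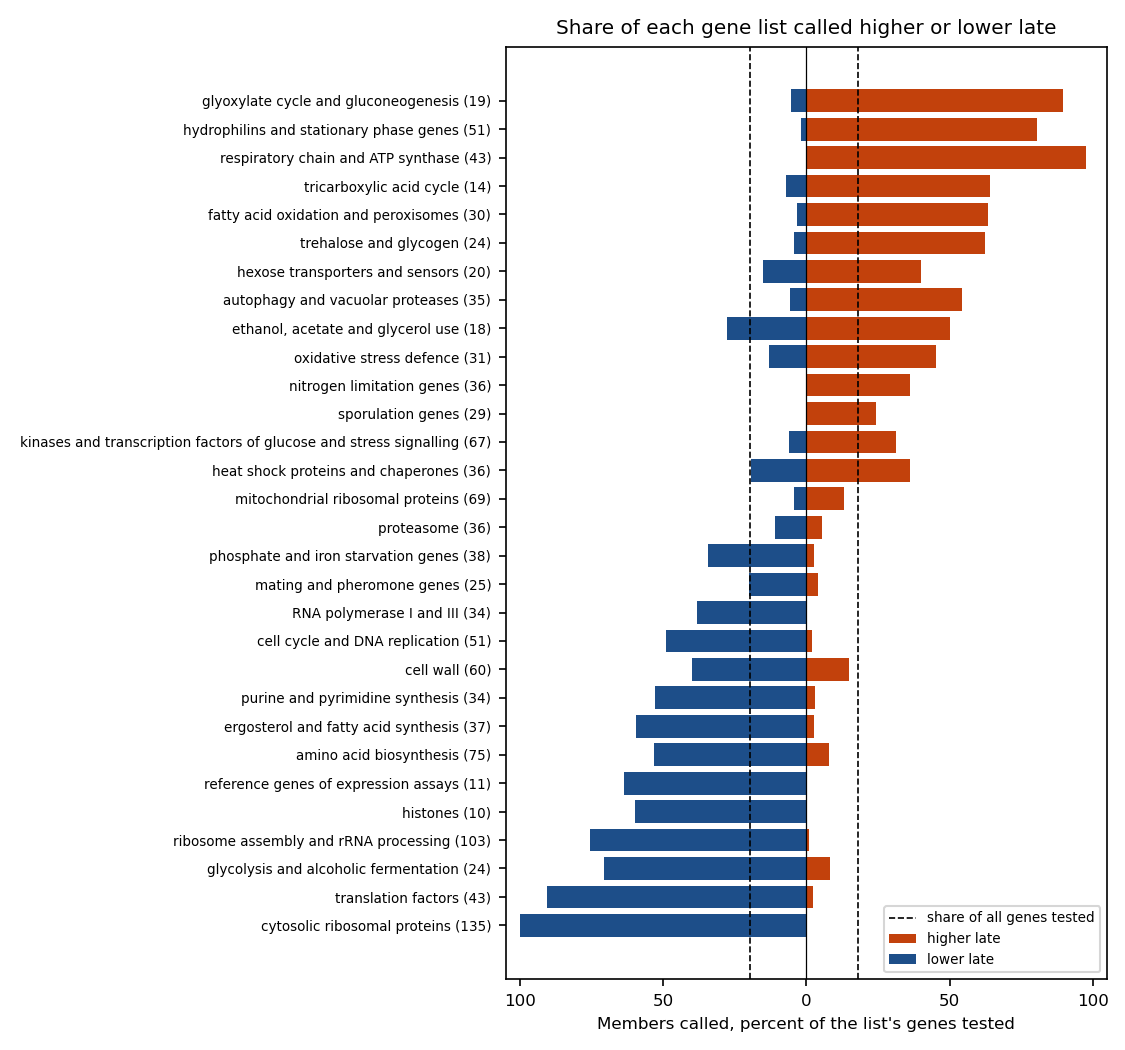
Share of each of 30 gene lists called higher (right) or lower (left) late, as a percentage of the genes tested, which stand in brackets. Dashed lines mark the shares over all genes tested, 18.0% higher and 19.8% lower. Lists are ordered by median difference, from the glyoxylate cycle and gluconeogenesis at 3.31 to cytosolic ribosomal proteins at -3.06.

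Among 67 kinases and transcription factors of glucose and stress signalling, 21 (31.3%) were higher late and 4 (5.97%) lower. Over all genes tested the shares were 18.0% and 19.8%. Under quantile normalization 13 of the 67 were higher and 1 lower. The median difference was 0.44, and 0.22 under quantile normalization. After USV1, the largest rises were those of CAT8 (3.47) and SIP4 (2.81), activators of gluconeogenic genes, and HAP4 (2.94), the limiting subunit of the activator of respiratory genes. CAT8 had 2.33, 2.95 and 1.45 late, against -1.13, -1.21 and -1.34 early (SE 0.35, adjusted p = 5.58e-05). HAP4 had 3.69, 3.24 and 3.48 late, against -0.37, 0.42 and 1.54 early (SE 0.42, adjusted p = 0.000375). CAT8 was level on the early side, whereas HAP4 was highest there at 5 hours, and SIP4 had its highest value, 3.46, at 1 day. The 4 that fell were RAS1 (-1.72), the stress factor MSN2 (-1.29), the glycolytic activator GCR1 (-0.97) and the kinase gene PSK2 (-0.79), and without the 3-hour array 2 of these calls were left. The partner of MSN2, MSN4, was not called (0.68, SE 0.40, adjusted p = 0.195).

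Of 35 genes of autophagy and vacuolar proteases, 19 (54.3%) were higher late and 2 (5.71%) lower. Over all genes tested the shares were 18.0% and 19.8%. Under quantile normalization 9 of the 35 were higher. The median difference was 0.96, and 0.54 under quantile normalization. ATG8, the protein attached to growing autophagosomes, rose by 2.92, with 3.85, 4.22 and 3.40 late, against 1.16, 0.82 and 0.73 early (SE 0.28, adjusted p = 4.59e-05). The inhibitors of vacuolar proteases TFS1 and PBI2 rose by 3.04 and 2.37. VTC1, a subunit of the vacuolar polyphosphate polymerase, fell by 2.26.

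Genes of phosphate and iron starvation had 13 of 38 (34.2%) lower late and 1 (2.63%) higher, beside 19.8% and 18.0% over all genes tested. The count of higher genes was 2 without the 0-hour array and 3 without the 5-hour or the 1-day array. The acid phosphatase genes PHO12 and PHO11, which are near-identical, differed by -3.30 and -2.72, and the iron permease FTR1 by -2.34, all falls. PHO12 had -3.17, -3.55 and -4.33 late, against 0.83, -0.52 and -1.46 early (SE 0.51, adjusted p = 0.000626), and so drifted down on both sides. The sodium-coupled phosphate transporter PHO89 rose by 2.81.

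Proteasome genes were close to level. Of 36 genes, 2 were higher late and 4 lower, below the shares over all genes on both sides, and 18 of the 30 not called had an interval within 2-fold of no difference. The median difference was 0.02, with -0.03 on the deposited values and -0.44 under quantile normalization. The rises were those of RPN4 (1.44), the activator of proteasome genes, and of the stress-induced polyubiquitin gene UBI4 (1.19). PUP1 fell by 1.13 and PRE8 by 0.90, and both calls were lost without the 3- or the 9-hour array. The count of 4 lower genes was 1 without the 0- or the 7-hour array, 2 without the 3- or the 5-hour array and none without the 9-hour array.

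Of 11 genes often used as references in expression assays, 7 were lower late and none was higher, with a median difference of -1.03. GSP1, a small GTPase of nuclear transport, fell by 2.65, TPI1 by 1.92, the tubulin TUB2 by 1.69 and the pyrophosphatase IPP1 by 1.54. The actin gene ACT1 had 0.05, -0.28 and -0.91 late, against 0.59 and 0.72 at 3 and 5 hours and no value at 0 hours (difference -1.03, SE 0.34, adjusted p = 0.0363), and its call was lost without the 9-hour or the 1-day array. Without the 5-hour array, the count was 4 lower genes.

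Yeast often has 2 genes for one enzyme, and 24 such pairs were set side by side, each with the gene known from respiration, stress, low oxygen or poor carbon first, where such a role is known. In 8 pairs the first gene rose and the second fell, and in no pair was it the other way round. In 4 pairs both rose, in 3 both fell, in 8 only 1 of the 2 was called and in 1 neither was. The log2 ratio of first over second gene, which no centring of the arrays can change, was higher on each late array than on each early array with a value in 16 of the 24. These pairs were chosen with earlier results of these data known, so the counts describe the pairs and are not a test.

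The pentose phosphate pathway, which makes NADPH and ribose, held 4 of the 8 opposed pairs. The transketolase TKL2 had 3.92, 3.08 and 4.06 late, against 0.38, 0.05 and 0.12 early (difference 3.50, SE 0.30, adjusted p = 3.05e-05). Its main isoenzyme TKL1 had -4.45, -3.70 and -1.26 late, against 0.29, 0.24 and -0.56 early (difference -3.13, SE 0.65, adjusted p = 0.00353). TKL1 thus moved most of the way back at 1 day, and TKL2 did not. The transaldolase NQM1 rose by 4.76 and TAL1 fell by 1.37, the phosphogluconate dehydrogenase GND2 rose by 3.75 and GND1 fell by 1.90, and the lactonase SOL4 rose by 3.87 and SOL3 fell by 1.27. NQM1 had no value at 0 hours and GND2 none at 3 hours.

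The other 4 opposed pairs lay in other pathways. The mitochondrial aldehyde dehydrogenase ALD4 rose by 2.59 and the cytosolic ALD6 fell by 2.09, a call lost without the 7-hour array. The glutamate dehydrogenase GDH3 rose by 3.34 and GDH1, with no value at 1 day, fell by 1.31, a call lost without the 0-hour array. The Hsp70 gene SSA4 rose by 3.07 and SSA2 fell by 1.44, a call lost without the 0-, 3- or 9-hour array. The phosphoglucomutase PGM2 rose by 1.75 and PGM1 fell by 1.69, but PGM2 turned to -1.25 under quantile normalization.

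Other pairs moved together or in 1 member only. ADH2, the alcohol dehydrogenase that is repressed by glucose and burns ethanol, fell by 1.49 beside ADH1 (-1.71), its near-identical partner. ADH2 had -0.87, -1.11 and -0.95 late, against 0.63, 0.59 and 0.32 early (SE 0.24, adjusted p = 0.000897). Binding of ADH1 transcripts to the ADH2 probe was not tested. ENO1 and ENO2, also near-identical, fell by 1.80 and 1.81. The hexokinase HXK2, made on glucose, fell by 2.44, while HXK1 differed by 0.95 with a 95% interval of -0.29 to 2.19, and by -1.48 under quantile normalization. The carriers AAC1 and PET9, which exchange ADP and ATP, rose by 3.82 and 1.14, and PET9 was no longer called without the 9-hour array and turned to -0.88 under quantile normalization.

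**Figure D4:**
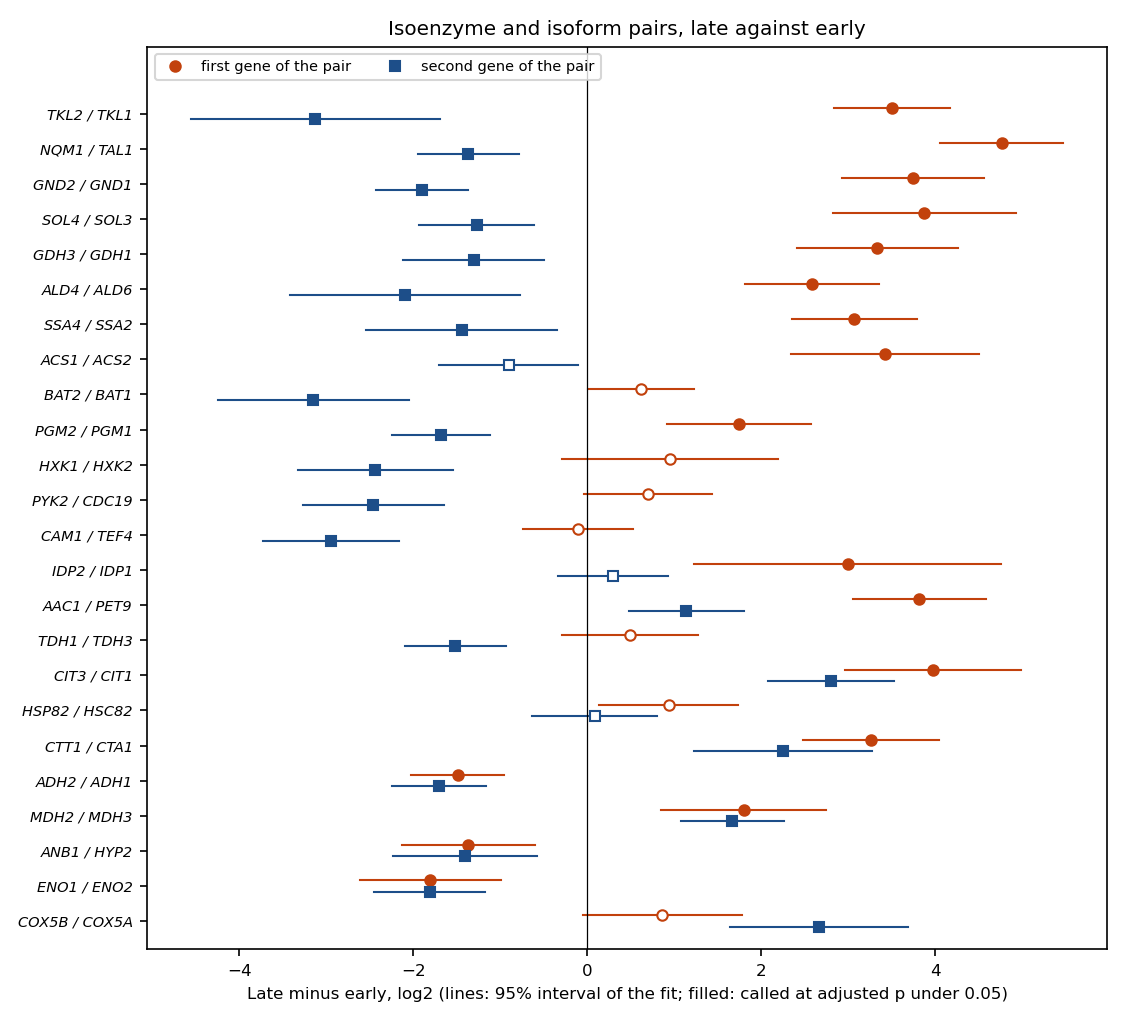
Late minus early difference on the log2 scale (horizontal axis) of the 2 genes of each of 24 pairs, with the 95% interval of the fit as a line. Circles are the first and squares the second gene named at the left, and filled symbols are called. At the top, TKL2 lies at 3.50 and TKL1 at -3.13, and at the bottom COX5B lies at 0.86 and COX5A at 2.66.

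Among genes called with 6 values, 1018 rose and 1133 fell. The call sets the 5-hour array with the early side, so it favours genes that step between 5 and 7 hours over genes that had moved by 5 hours, and the arrays give no measure of the timing of the change over these genes. By 5 hours, 75 of the risers and 37 of the fallers differed at least 2-fold in their later direction from the mean of 0 and 3 hours. SOL4, at 3.26 at 5 hours, and HSP26, at 2.62, were among these genes.

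The late values of these genes were not level. The lowest value of a faller was at 7 hours in 628 genes, at 9 hours in 339 and at 1 day in 166. The highest value of a riser was at 7 hours in 361 genes, at 9 hours in 467 and at 1 day in 190. At 1 day 342 of the 1133 fallers lay at least 2-fold back from their 7-hour value, and 17 lay at least 2-fold beyond it. For the risers these counts were 115 and 65 of 1018. The 1-day array also had the smallest spread over genes of the 3 late arrays, with an SD of 1.21, and its part in these counts was not tested.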

How the data were processed

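RNA of wild-type yeast was measured on 6 two-channel spotted arrays against a reference. The authors deposited 1 value per gene and array, which the values' range and signs show to be log ratios and which were taken as log2 ratios. The base, dyes, scanner software and normalization count as not given in the sources used here. No columns of other samples were present (0). The median of each array was subtracted. Late (7 hours, 9 hours, 1 day) minus early (0, 3, 5 hours) was fitted in R 4.3.3 with limma 3.58.1 (lmFit, then eBayes) and no covariate, over genes with at least 2 of 3 values a side, which left 19 of 6100 out. A missing value was not imputed. Benjamini-Hochberg adjustment ran over every gene tested, with a threshold of 0.05. Each standard error (SE) uses the moderated variance, with a prior SD of 0.36 and 6.92 prior degrees of freedom. Arrays have no depth, and their number limits the precision.

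The cut between 5 and 7 hours, the 30 lists (1273 entries, 33 without a match) and the pairs were chosen with earlier results of these data known. Some genes stand in more than 1 list. Named genes are USV1, the 12 largest rises and falls with 6 values and no overlap, the 5 rises and 5 falls with the smallest p, and the 4 largest called differences of each list. Other genes named, and the pairs, were chosen after their values were seen. A few genes that the rule takes are not reported here. Gene names came from a RefSeq table of assembly R64 (5592 of 6100 matched), used for names and neighbours only. A planned search of promoters for motifs was not run and is not analysed here. On simulated data the fit found 16, 40, 48 and 50 of the 50 genes moved by log2 shifts of 1, 2, 3 and 4, with 3 false calls among 5881 genes. The simulated noise was independent between genes and between arrays, unlike that of steps of a course. These counts therefore give no error rate for the calls on the real arrays.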

Additional observations from a re-analysis of the deposited data

How the results depend on the processing

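The 2300 calls numbered 1591 to 2508 when 1 array was left out at a time, with 616 of the rises and 738 of the falls called in every such fit. Quantile normalization, which gives all arrays equal spread, gave 1374 calls (656 higher, 718 lower), 1206 of them shared, with 476 calls within lists against 744. Asking for more than 2-fold gave 503 (243 higher, 260 lower), since that test is stricter by construction. Calls within lists numbered 610 to 769 without 1 array. Of 178 named genes and pair members, 168 were called. Under quantile normalization 45 of these calls were lost, 1 (PGM2) turned to a call in the other direction, and 12 of the 178 genes changed sign: PET9 -0.88, IDP1 -0.080, RSM10 -0.088, HXT6 -0.32, HXK1 -1.48, RME1 -0.057, COX5B -0.64, TDH1 -1.75, BAT2 -0.078, PGM2 -1.25, HSC82 -0.59 and CAM1 0.092. The cause was not tested. HSC82 (0.083) and CAM1 (-0.10), neither called, also changed sign when 1 array was left out, with ranges of -0.13 to 0.36 and -0.27 to 0.092. Robust variance estimation (2302 calls), the deposited values without centring (2323) and both other filters on missing values (2195 and 2299) kept the counts of genes called higher, lower and in all within 1.5 times, and the first 2 changed no call among the 178. On the deposited values the count of lower nitrogen limitation genes was 2, against 0, and the other list counts stayed within 1.5 times. List counts were not run with robust variance estimation or the other filters. The labels carry no replicate numbers. No paired analysis was possible because no array of one side is paired with an array of the other.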

Other observations

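Of 1027 open reading frames tested that had a systematic name alone, 245 (23.9%) were higher late and 95 (9.25%) lower, beside 18.0% and 19.8% over all genes tested. The group takes in open reading frames without a match in the RefSeq table, of which the 6100 held 508. YNL195C and YNL194C, which lie side by side, rose by 5.03 and 4.34, and YNL194C was steady within each side, at 4.03, 4.20 and 4.26 late, against -0.10, -0.40 and -0.03 early. YBR116C, which stands next in systematic number to TKL2, rose by 4.52, and RRT1, the neighbour of MOH1 (3.82), by 4.22. Binding of TKL2 transcripts to the YBR116C probe was not tested. YLR311C rose by 3.92, YJR096W by 3.57, YOR019W by 3.47, YGR067C by 3.32 and YMR206W by 3.31.

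Of the 20 largest falls among genes with a systematic name only, 9 stand next in systematic number to a cytosolic ribosomal protein gene. Examples are YLR339C (-3.68) beside RPP0 (-3.89), YDR417C (-3.53) beside RPL12B (-3.68) and YLR076C (-3.32) beside RPL10 (-3.29). Over all 45 such neighbours the median difference was 0.20, with 14 lower, 8 higher and 23 not called. Over all genes with a systematic name alone, 9.25% were lower and 23.9% higher. Of the 45, 21 had no entry in the RefSeq table, among them the examples above. Most of the 14 falls were among these 21, and most of the 8 rises were not. Binding of ribosomal protein transcripts to these probes was not tested.

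Of 5176 pairs of adjacent protein-coding genes, 258 rose together, 292 fell together and 293 moved in opposite directions. The same direction thus held in 10.6% of pairs and opposite directions in 5.66%. Single genes rose in 18.0% and fell in 19.8% of cases, and the pair counts to expect from these shares were not worked out. The differences of the 2 neighbours correlated at r = 0.15 over pairs, which share genes and arrays. In the 65 pairs whose genes overlap, 6 rose together, 2 fell together (12.3% in the same direction) and 0 were opposed, with r = 0.65. Such genes share sequence where they overlap, and binding of 1 transcript to the probes of both was not tested.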
